A study of Mus musculus with 8 samples.

Results

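The 4 antigen receptor loci of the mouse, Tcra, Igk, Tcrb and Igh, held 60 of the 17418 called adenines of this series. The DNA had been pulled down with H2A.X, the histone variant that is phosphorylated around DNA breaks. The loci were chosen by the numbers of called sites in the short DNA, where Tcra and Igk had many more in wild-type than in knockout cells. Tcrb and Igh were added as loci of the same family. Members were all listed adenines between the RefSeq limits of each locus in mm10, which are chromosome 14 from 52427967 to 54224198 for Tcra, chromosome 6 from 67555636 to 70726754 for Igk, chromosome 6 from 40891296 to 41558371 for Tcrb and chromosome 12 from 113258768 to 116009954 for Igh. Tcra held 16 sites, Igk 24, Tcrb 6 and Igh 14, of which 8 were in the wild-type long list (wild-type L), 10 in the knockout long list (knockout L), 32 in the wild-type short list (wild-type S) and 10 in the knockout short list (knockout S). The plots shorten wild type to WT and knockout to KO.

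All 4 groups were TT2 embryonic stem (ES) cells, a line of C57BL6 x CBA background, at passage 5 to 10 and grown without feeders. Wild-type L and wild-type S came from wild-type cells, and knockout L and knockout S from cells with a knockout of Alkbh1, which encodes a dioxygenase described as an N6-methyladenine demethylase. The labels do not say how many clones the knockout stands for. Native chromatin was immunoprecipitated with a customized H2A.X antibody, its DNA was separated into a long (L) and a short (S) part, and single molecules of both parts were sequenced, a method in which the polymerase slows at some modified bases. No list of DNA without immunoprecipitation was used here, so the calls cannot be set against a control for H2A.X binding. Each group had 2 replicates, but both point to the same list, so every value below is that of 1 pooled list and no test between groups could be made. The lists held 3862 (wild-type L), 3044 (knockout L), 7142 (wild-type S) and 3370 (knockout S) sites, with a median coverage of 11, 11, 14 and 12 at the called bases, and the depth at other bases is unknown.

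Antigen receptor genes are built in developing lymphocytes by V(D)J recombination, in which the RAG proteins cut DNA beside variable (V), diversity (D) and joining (J) segments and the non-homologous end joining machinery joins the chosen segments. Each segment is flanked by a recombination signal made of a heptamer, a spacer and a nonamer. Tcra and Tcrb encode the alpha and beta chains of the T cell receptor, Tcra encloses the delta chain locus Tcrd, and Igh and Igk encode the heavy chain and the kappa light chain of antibodies. ES cells are not lymphocytes and carry these loci in germline order, as long arrays of V segments beside a shorter stretch of D, J and constant (C) segments.

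The contexts that carry the results are printed 5′ to 3′ on the strand of the call, with the called adenine, base 21 of 41, in capitals. The first set holds the clusters of 3 sites, which were both found in Tcra in wild-type S. Here and below, a site above a segment has a higher coordinate than the segment and a site below it a lower one. The first cluster lay 95 to 117 bases above the V segment Trav3d-3, and the second lay at and in the V pseudogene Trav5n-3.

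Trav3d-3, chr14:52973113-52973153, plus strand: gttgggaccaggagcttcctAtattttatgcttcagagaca
Trav3d-3, chr14:52973133-52973173, plus strand: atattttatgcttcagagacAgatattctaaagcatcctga
Trav3d-3, chr14:52973135-52973175, plus strand: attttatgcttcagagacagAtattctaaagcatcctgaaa
Trav5n-3, chr14:53239254-53239294, minus strand: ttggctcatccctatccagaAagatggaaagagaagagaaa
Trav5n-3, chr14:53239307-53239347, plus strand: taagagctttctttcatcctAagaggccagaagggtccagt
Trav5n-3, chr14:53239335-53239375, minus strand: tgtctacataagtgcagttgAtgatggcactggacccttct

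The second set holds the highest-scoring site of each of the other loci. That of Tcra is the first Trav3d-3 context above.

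Igk, chr6:68069624-68069664, plus strand, wild-type S: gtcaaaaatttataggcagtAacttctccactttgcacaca
Tcrb, chr6:41200374-41200414, minus strand, knockout L: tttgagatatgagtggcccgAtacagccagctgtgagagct
Igh, chr12:114114368-114114408, plus strand, wild-type S: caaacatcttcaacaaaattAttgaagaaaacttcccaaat

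The third set was picked after its values were seen. It holds the site with the highest kinetic signal of the series, a site beside a D segment, and the only pair of contexts at different places of the loci that shared a run of 16 or more bases.

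Tcra, chr14:54047776-54047816, plus strand, wild-type S: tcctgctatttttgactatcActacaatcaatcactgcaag
Igh, chr12:113461405-113461445, plus strand, wild-type S: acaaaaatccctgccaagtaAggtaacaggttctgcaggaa
Igk, chr6:69249892-69249932, plus strand, wild-type S: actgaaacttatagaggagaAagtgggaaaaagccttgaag
Igk, chr6:70302309-70302349, minus strand, knockout S: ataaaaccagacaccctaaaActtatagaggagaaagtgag

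Tcra carried 2 sites in wild-type L, 1 in knockout L, 13 in wild-type S and 0 in knockout S. Wild-type S thus stood far above the other 3 lists. These sites were 0.0518% of the wild-type L sites (exact Clopper-Pearson 95% interval 0.00627% to 0.187%), 0.0329% of knockout L (0.000832% to 0.183%), 0.182% of wild-type S (0.0970% to 0.311%) and 0% of knockout S (0% to 0.109%). The intervals treat sites as independent and cover counting error only, so they are too narrow where sites cluster. With the knockout S list at 0.472 times the length of wild-type S, 13 sites scale to 6.13. Knockout minus wild type was -0.0189 percentage points in L (-0.158 to 0.138, an interval built from both exact intervals) and -0.182 in S (-0.311 to -0.0434). The S counts chose the locus and are given as a description. In wild-type S, Tcra had 7.24 sites per Mb and the rest of chromosome 14 had 2.93.

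Igk carried 5 sites in wild-type L, 5 in knockout L, 12 in wild-type S and 2 in knockout S. The L lists were equal in number, and wild-type S was again the highest. The shares were 0.129% (0.0421% to 0.302%), 0.164% (0.0534% to 0.383%), 0.168% (0.0868% to 0.293%) and 0.0593% (0.00719% to 0.214%) in that order of the lists. Between knockout and wild type the Igk share differed by 0.0348 points in the long DNA (-0.170 to 0.270) and by -0.109 in the short DNA (-0.244 to 0.0662). The difference in S had chosen the locus too.

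Tcrb and Igh, which were added as loci of the same family, had higher shares in KO than in WT in both parts, by less than counting error. Tcrb carried 0 sites in wild-type L, 1 in knockout L, 2 in wild-type S and 3 in knockout S, so no list had more than 3. The Tcrb share was 0.0329 points higher in knockout long DNA (-0.0678 to 0.183) and 0.0610 points higher in knockout short DNA (-0.0407 to 0.234). Igh carried 1 site in wild-type L, 3 in knockout L, 5 in wild-type S and 5 in knockout S. For Igh the share was higher by 0.0727 points (-0.0692 to 0.264) and 0.0784 points (-0.0585 to 0.281) in long and short DNA. In short DNA the Igh counts were equal, so the higher share came from the shorter knockout list. Each of these 4 intervals included 0.

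**Figure D1:**
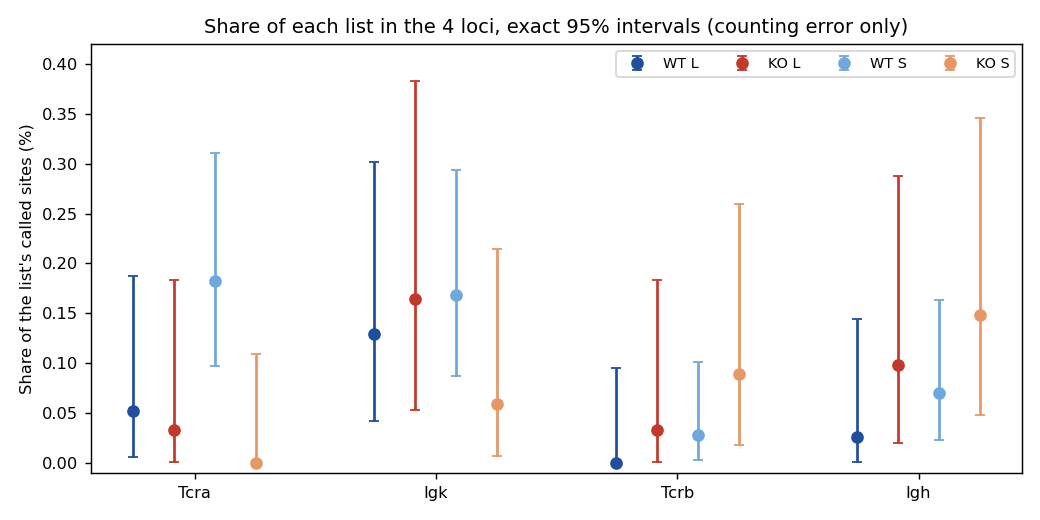
Share of the called sites of each list (y axis, percent) that lay in each locus (x axis), with exact 95% intervals for counting error. Wild-type S stands at 0.182% in Tcra against 0% in knockout S, where the upper limit of 0.109% just passes the lower limit of 0.0970% in wild-type S, and in the other loci the 4 intervals overlap widely.

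Each locus was then set beside windows of its own length on its own chromosome, tiled outwards from it. On chromosome 14, 1.52% of 66 windows held as many sites as Tcra or more in wild-type S, which was 1 window with 81 sites against a median of 4 sites. In wild-type L the figure was 54.5% of windows and in knockout L 74.2%, so that Tcra was an ordinary stretch of the chromosome in both L lists. Knockout S had no site in Tcra and none in 16.7% of the windows. The difference of 13 between wild-type S and knockout S was reached by 1.52% of windows, whose differences ran from -4 to 31 around a median of 2. Of the 11 windows without a site in knockout S, the richest in wild-type S held 9. Since the S lists chose Tcra, its place in them supports nothing further.

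For Igk, 31.8% of 44 windows on chromosome 6 held as many sites or more in wild-type L, 18.2% in knockout L, 15.9% in wild-type S and 84.1% in knockout S. The windows had a median of 8 sites in wild-type S and of 3 in knockout S. A difference between wild-type S and knockout S of 10 or more, as at Igk, was seen in 13.6% of windows. With all calls, the 12 sites of Igk in wild-type S were therefore not rare for a stretch of this length. The wild-type S figure depended on the setting. It was 2.27% at a score of 30 or more and 50% without sites that share a run of 16 bases with another context. Since the S lists chose Igk too, its place in them supports nothing further.

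Among 217 windows of the length of Tcrb, 54.8% held no site in wild-type L, 36.4% held 1 or more in knockout L, 47% held 2 or more in wild-type S and 5.07% held 3 or more in knockout S. At Igh, 95.1% of 41 windows on chromosome 12 held as many sites or more in wild-type L, 43.9% in knockout L, 87.8% in wild-type S and 12.2% in knockout S. The windows beside Igh had a median of 3 sites in wild-type L and of 7 in wild-type S, above the 1 and 5 of the locus, and a median of 3 in knockout S, below its 5.

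**Figure D2:**
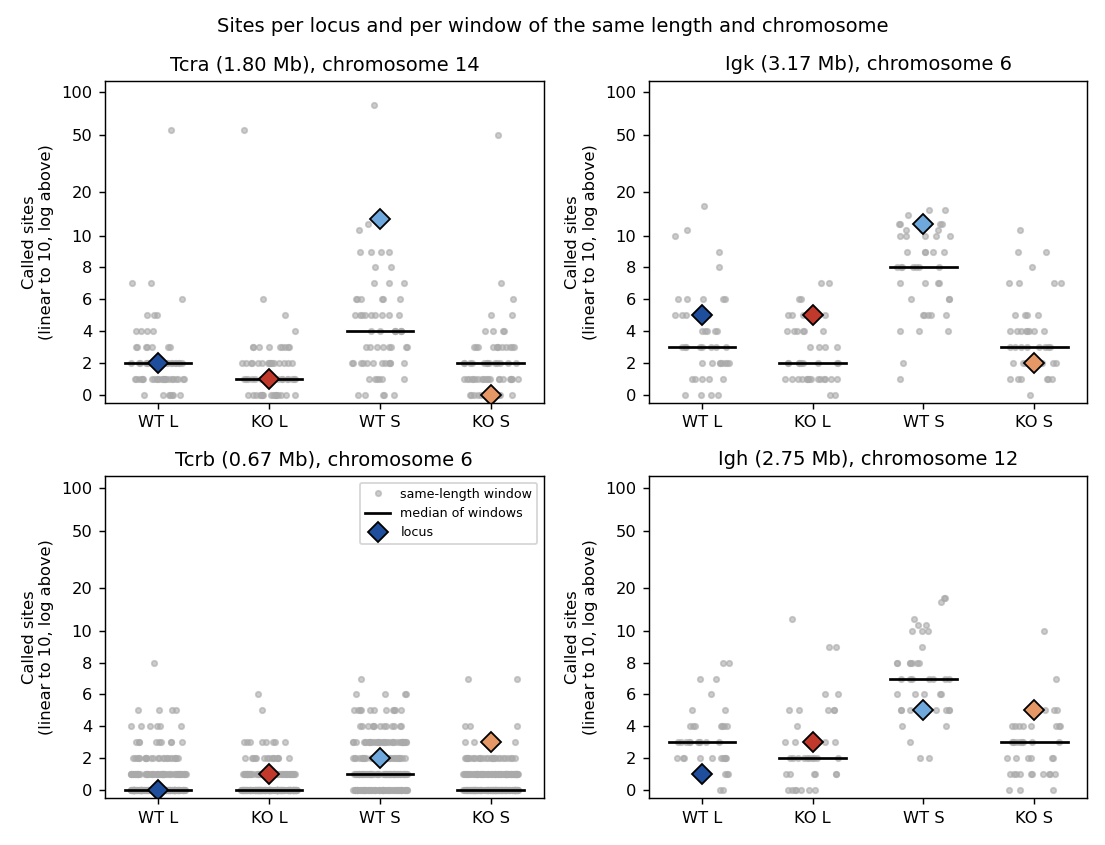
Called sites (y axis, linear to 10 and logarithmic above) in each locus (diamonds) and in windows of the same length on the same chromosome (grey points, with their median as a bar) for the 4 lists. Tcra in wild-type S lies above all but 1 of the 66 windows, while the other loci lie within the spread of their windows.

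No called base was shared between any pair of lists within the 4 loci, and no site lay within 1 kb of a site of another list. The closest approach was 16611 bases, in Igh between a wild-type S site in the V segment Ighv5-16 and a knockout L site 3875 bases below Ighv5-17. How often whole lists share a base or come within 1 kb is not given here. With so few sites per list, the lack of overlap is therefore not shown to be a trait of the loci. Neighbouring sites of 1 list at most 1 kb apart were joined into clusters. The 13 Tcra sites of wild-type S formed 8 clusters, and 8 of the 13 lay in clusters of 2 or more. Counted as clusters, Tcra in wild-type S was matched or passed by 2 of the 66 windows. The 12 Igk sites of wild-type S formed 10 clusters, and Igk held 4 clusters in each L list and 2 in knockout S. Igh held 1, 3, 4 and 4 clusters in wild-type L, knockout L, wild-type S and knockout S, and Tcrb held 1, 2 and 2 in knockout L, wild-type S and knockout S. The pairs in Igk lay below the V pseudogene Igkv14-134-1 (wild-type L), above Igkv18-36 (knockout L), below the pseudogene Igkv2-116 and above Igkv4-71 (both wild-type S). Those in Igh lay 4954 and 4958 bases above Ighv9-2 (wild-type S) and 419 and 504 bases above Ighv1-39 (knockout S). Over whole lists, 30.6% (wild-type L) to 34.6% (wild-type S) of sites lay in clusters of 2 or more.

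Most sites lay along the V arrays, as the map of the loci shows. Exceptions included a wild-type S site of Igh among the D segments and a wild-type S site of Tcrb 52880 bases above Trbv30. In Tcra the wild-type S sites stretched from 44.6 to 1620 kb of a locus of 1796 kb. In Igk the 5 wild-type L sites lay between 120 and 730 kb and the 5 knockout L sites between 1249 and 2728 kb, so these lists did not overlap in position, while the wild-type S sites ran from 442 to 3142 kb. In Igh the knockout S sites lay between 1422 and 2382 kb and the wild-type S sites between 203 and 1505 kb. With so few sites per list, these ranges are a description of the calls.

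**Figure D3:**
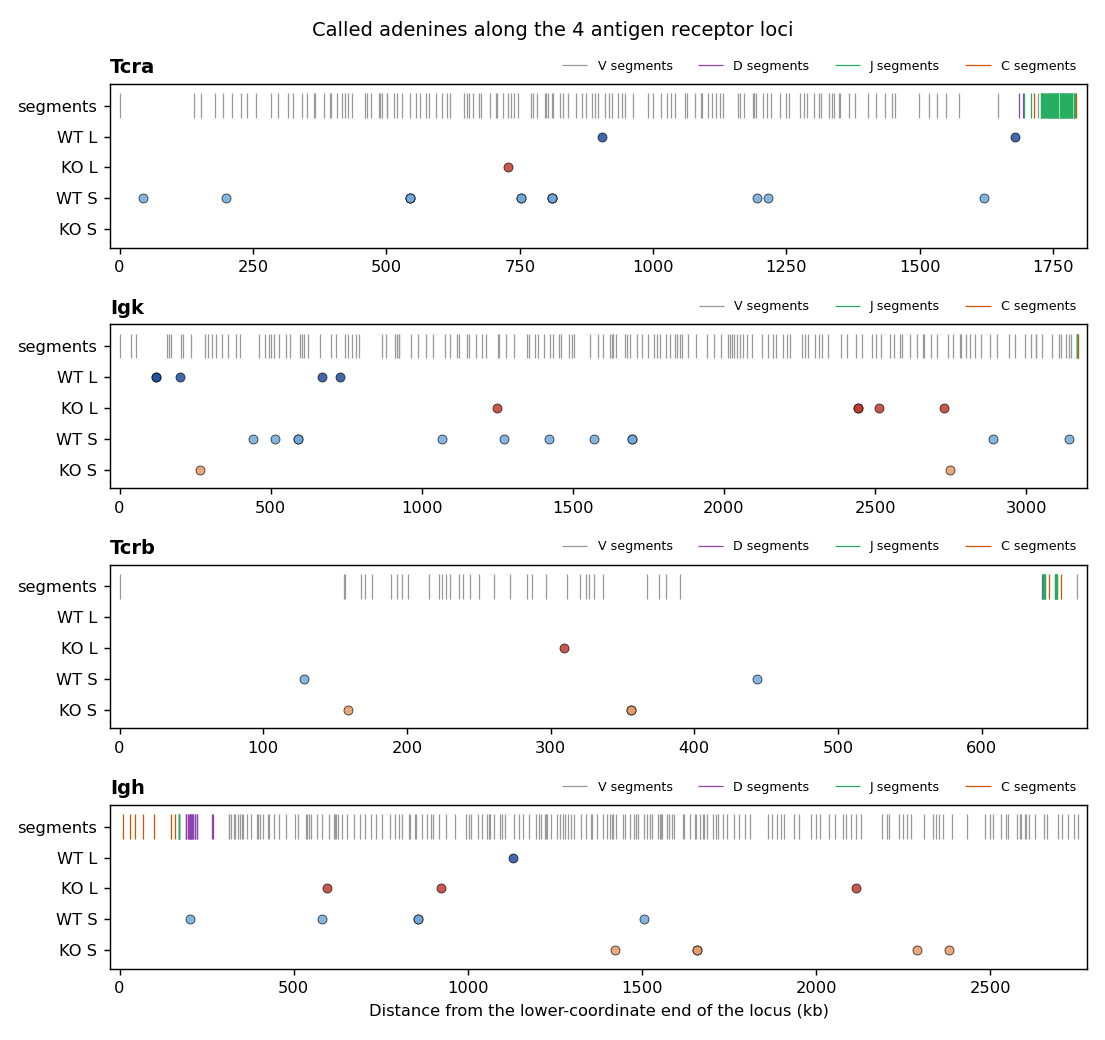
Position of each called adenine (circles, 1 row per list) in kb from the lower-coordinate end of each locus (x axis), below the starts of the annotated V, D, J and C segments (coloured ticks). Tcra has sites across its V array in wild-type S and none in knockout S, and clustered sites overlap as darker circles.

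Sites inside a segment were about as many as the length of the segments gives. RefSeq places 202 segments in Tcra, 168 in Igk, 53 in Tcrb and 215 in Igh, which cover 4.55%, 2.71%, 2.98% and 3.25% of the loci. Inside one lay 3 of the 60 sites (5%), where the length share of each locus gives 2.01, and 2 of them were in the pseudogene Trav5n-3 and 1 in the V segment Ighv5-16. Within 1 kb of a segment lay 8 of 16 Tcra sites, where such positions make up 23.3% of the locus, 1 of 24 in Igk (12.9%), 0 of 6 in Tcrb (14.6%) and 5 of 14 in Igh (18.1%). As clusters these were 4 of 11, 1 of 20, 0 of 5 and 4 of 12. Over the 4 loci, 23.3% of sites and 18.8% of clusters lay within 1 kb of a segment, against 17.0% of the length.

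In the Tcra array, many V segments carry a d or an n in their names, which marks copies that arose by duplication of a block of the array in the C57BL/6 genome. RefSeq names 130 Trav segments, of which 56.9% carry such a letter. Their starts lay between 256 and 947 kb of a locus of 1796 kb, so the share of names is not a share of length. Among the 16 Tcra sites, which include those nearest to Trdv4 and Trdd1, 10 (62.5%) were nearest to a segment with such a letter. In wild-type S these were the 3 sites above Trav3d-3, the 2 sites 5537 and 5649 bases above Trav15n-1 and the 3 sites at Trav5n-3. Their coverage was 21 to 37 with a median of 26, against 6 to 37 with a median of 15 at the other 5 sites. Duplicated blocks can hold near-identical sequence, in which the placing of reads is uncertain. Its part in the number of Tcra sites was not tested, and this split of the segments was made after the values were seen.

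The stretch from the first to the last D, J or C segment spans 111 kb in Tcra, 4.19 kb in Igk, 14.98 kb in Tcrb and 258 kb in Igh, or 6.16%, 0.132%, 2.25% and 9.36% of the loci, and it held 0, 0, 0 and 1 sites. Its length share gives 2.46 sites over the 4 loci, too few to read a difference from. The single site was the wild-type S call beside Ighd2-6, a D segment of Igh at 113461369 to 113461385. It lay 40 bases above the segment, which is its upstream side because the locus runs towards lower coordinates. Its context, printed above, opens with acaaaaatc, which differs by 1 base from the consensus nonamer ACAAAAACC of recombination signals. The match covers 113461405 to 113461413, with 19 bases between it and the segment, which is as long as a heptamer and the shorter type of spacer together. The called adenine came 12 bases after the match. A nonamer with at most 1 mismatch on either strand was found in 342 of all 17418 contexts (1.96%), and in 1 of the 60 contexts of the loci. The heptamer CACAGTG, searched on both strands, occurred in none of the 60 and in 135 of the 17418 contexts (0.775%). These motif counts describe the 41 bases around a call and do not show a functional signal.

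The median coverage at the Tcra sites of wild-type S was above that of the rest of the list. Coverage was 6 at the lowest, 21 in the median and 37 at the highest, and 6 of the 13 sites (46.2%) reached 25, against 18.6% of the sites outside the 4 loci, where the median was 14. These 6 sites formed only 3 clusters, so they do not stand for 6 separate places. Among the 43 windows of chromosome 14 with 3 or more sites in wild-type S, 3 had a median coverage as high. Igk had a median coverage of 10, 10, 10.5 and 19.5 in wild-type L, knockout L, wild-type S and knockout S, and Igh of 10, 9, 17 and 16. The Tcrb medians were 24, 7.5 and 15 in knockout L, wild-type S and knockout S. No site of the loci in either L list reached a coverage of 25, against 12.0% of wild-type L and 14.2% of knockout L sites outside the loci. With 8 and 10 sites in the loci, this is too few to read a difference from.

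The inter-pulse duration (IPD) ratio is the time the polymerase took at a base relative to that predicted for unmodified DNA. At the Tcra sites of wild-type S it ran from 1.73 to 131.12 with a median of 3.19, against a median of 2.56 outside the loci, and 13 of the 43 windows had a median as high. The 3 sites above Trav3d-3 had ratios of 3.43, 2.15 and 1.73, and the 3 at Trav5n-3 had 2.06, 2.11 and 2. All but the first of these 6 ratios were below the median of the list. The wild-type L sites of Tcra had 5.49 and 4.81, and the knockout L site had 4.03. At Igk the medians were 2.62, 2.63, 2.75 and 2.02 in wild-type L, knockout L, wild-type S and knockout S, close to the medians of 2.56, 2.57, 2.56 and 2.66 of the sites outside the loci except in knockout S, which had 2 sites. Tcrb had 3.86 at its knockout L site and medians of 2.44 in wild-type S and 3.96 in knockout S. Igh had 4.48 at its wild-type L site and medians of 2.41, 2.58 and 2.48 in knockout L, wild-type S and knockout S.

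The ratio of 131.12 was the highest of all 17418 sites, ahead of 73.56 at a wild-type L site outside the loci. It belonged to a wild-type S site at chromosome 14 position 54047796, within Tcrd and 27208 bases below the V segment Trdv4. Its coverage of 6 was the lowest that any list contains, its score was 24 and its identification score, a separate value by which the caller rates the base as N6-methyladenine, was 4. Among the sites of wild-type S outside the loci the highest ratio was 35.03.

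**Figure D4:**
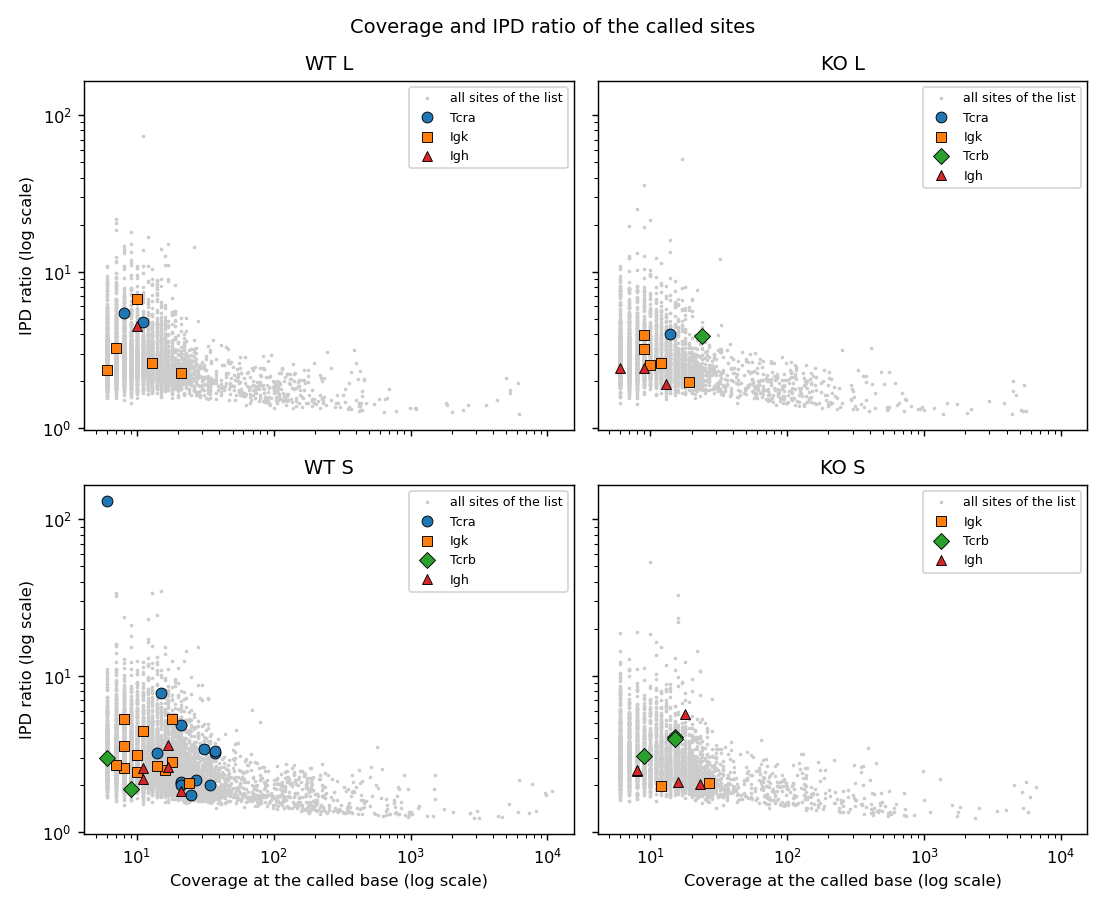
Coverage (x axis, log scale) and IPD ratio (y axis, log scale) of every called site in each list (grey) and of the sites of the 4 loci (coloured symbols). The loci lie within the cloud of their lists except for the Tcra site of wild-type S at a ratio of 131.12 and a coverage of 6.

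The caller's score, whose lowest value in each list was 20, was highest in the loci at 56 for the first site above Trav3d-3, 55 for the knockout L site of Tcrb 2193 bases below the V segment Trbv21, 52 for the wild-type S site 4949 bases above Trav5-1 and 42 for the second of the 2 Igh sites in wild-type S above Ighv9-2. A score of 30 or more was reached by 4 of 13 Tcra sites (30.8%) and 5 of 12 Igk sites (41.7%) in wild-type S, and by 1 of 5 Igh sites and 0 of 2 Tcrb sites there, against 25.2% of sites outside the loci. Over the 4 loci together it was reached by 31.2% of sites in wild-type S. The share was 12.5% in wild-type L against 18.6% outside, 20% in knockout L against 21.6% and 0% of 10 sites in knockout S against 22.6%. An identification score of 20 or more was reached by 8 of the 60 sites, of which 4 were in wild-type S (12.5% of 32, against 16.2% outside the loci), 3 in knockout S (30% of 10, against 14.5%), 1 in wild-type L (12.5% of 8, against 11.9%) and 0 in knockout L (against 13.3%). The knockout S pair in Tcrb, 11088 and 11006 bases below the V pseudogene Trbv27, had identification scores of 48 and 24 and ratios of 4.04 and 3.96.

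The modified fraction, the caller's estimate of the share of molecules modified at a base, was listed at coverage of 11 or more. It ran from 19.2% to 100% at 12 Tcra sites of wild-type S, with a median of 61.9%. The 3 sites at Trav5n-3 had 21.9%, 36.9% and 19.2% and the pair above Trav15n-1 had 37.7% and 34.1%, the upper 2 sites above Trav3d-3 had 61.9% and 61.8%, and the lowest site there and 4 single sites had 96.6% to 100%. The median over wild-type S sites outside the loci was 67.9%. Sites of a pair could differ, with 46.1% and 100% above Ighv9-2 and 69.5% and 100% above Igkv4-71. The 5 Igh sites of wild-type S ranged from 46.1% to 100%, and the 6 Igk sites with a value from 55.8% to 100%.

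The base after the called adenine was A at 19 of the 60 sites (31.7%), C at 9 (15%), G at 13 (21.7%) and T at 19 (31.7%), against 34.4%, 13.6%, 22.8% and 29.2% outside the loci. Among the 13 Tcra sites of wild-type S it was T at 6 and G at 3, and among the 12 Igk sites of wild-type S it was A at 6 and T at 0, where 30.8% of the wild-type S sites outside the loci had T. The median GC content of the 41-base contexts was 42.7% in the loci and 41.5% outside. The plus strand held 34 of the 60 sites and the minus strand 26.

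Contexts were also searched for words of 16 bases shared with a context at another place in the 4 lists, on either strand. Such a word was found at 18 of the 60 sites (30%), against 28.9% outside the loci. Igk had it at 10 of 24 sites, Igh at 4 of 14, Tcrb at 2 of 6 and Tcra at 2 of 16. The wild-type L site of Igh, below Ighv6-3, ends in a run of A and shared a word with 136 other contexts, the most in the loci. Among the highest-scoring sites, those above Trav5-1 (score 52) and Ighv9-2 (score 42) shared a word with 17 and 13 other contexts. The sites above Trav3d-3 (score 56) and below Trbv21 (score 55) shared none. The 2 Igk contexts printed above, 1052417 bases apart and from different lists, shared 21 bases. Over the 4 lists, the wild-type S context shared a word with 14 other contexts and the knockout S context with 11. Their match is thus not particular to Igk. Of the 13 Tcra sites in wild-type S, 11 had no shared word, among them both clusters of 3.

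Over the 4 lists together, the 4 loci held 7.16 sites per Mb and all chromosomes 6.56. This mean and the list densities below include dense stretches, such as the chromosome 14 window with 81 wild-type S sites. Igl, the lambda light chain locus (chromosome 16, 19026858 to 19260844), had a site each in knockout L and wild-type S, or 8.55 per Mb, and Tcrg, the gamma chain locus of 0.178 Mb, had none. Tcrd had 1 site in wild-type L, 7351 bases below the D segment Trdd1 and also within the gene model Gm30275, and the wild-type S site of ratio 131.12, both counted in Tcra. Among 19 genes of V(D)J recombination, end joining, break response and antibody diversification, those with a site numbered 1 in wild-type L, 1 in knockout L, 3 in wild-type S and 2 in knockout S. Of all 21887 protein-coding genes, 5.48%, 4.08%, 8.89% and 4.51% held a site in the same lists. The 19 genes span 1.14 Mb, for which the mean density of each list gives 1.65, 1.30, 3.06 and 1.44 sites, and they held 1, 2, 6 and 3. Counts this small were not set apart from that background by any test. Dntt, which encodes the polymerase that adds untemplated bases at the joints, had 1 site in wild-type S. Prkdc, which encodes the DNA-dependent protein kinase, had 2 in wild-type S, and the end joining genes Xrcc4 and Nhej1 had 2 in knockout S and 1 in wild-type L. Atm, whose kinase acts early after a DNA break, had 2 in knockout L, 3 in wild-type S and 1 in knockout S. Rag1, Rag2, Dclre1c, Lig4, H2ax and the other genes of the list had none, which sets no limit, since their depth is unknown.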

How the data were processed

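Each deposited list gives 1 called adenine per line. The genome is mm10, per the submitters' processing notes, and caller version, aligner and filters were not given in the sources used here. Per line, the authors deposited a modification score (whole numbers from 20 up), the coverage signal of the base without normalization, the IPD ratio (observed over predicted) and, in part, a modified fraction. All calls were used. All 17418 contexts had A at base 21, and 51 of the 51 contexts inside a RefSeq promoter sequence (GRCm38.p6) were identical to it at the stated position and strand.

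Sites were counted per locus, joined into clusters (gaps of at most 1 kb) and set beside windows of the same length, tiled outwards from the locus between the lowest and highest called position of the chromosome. Intervals are Clopper-Pearson at 95%, and those of differences combine both lists' intervals. Segments came from the RefSeq gene table of GRCm38.p6, and contexts from the deposited lists. Counting steps were tested on simulated data. Loci, lists and members were chosen with earlier results of these data known. Segments were named where they held a site or were nearest to a cluster of 2 or more sites, and other segments after their values were seen. Alternatives changed thresholds, denominators, windows and cluster gaps. Python 3.11.15, pandas 2.3.3 and scipy 1.17.1 were used.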

Additional observations from a re-analysis of the deposited data

Results flagged for a closer look

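The Igk share moved in opposite directions in both DNA parts. In the long part, wild-type and knockout cells had 5 sites each. The knockout share was 0.0348 percentage points higher there only because the knockout list was shorter. In the short part, with 12 wild-type and 2 knockout sites, the share dropped by 0.109 points. The difference between the parts was not tested, and the counting interval of each value included 0.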

How the results depend on the processing

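No paired analysis was possible because each list holds both replicates of its group together, and for the same reason no replicate could be left out. Of the recomputed knockout minus wild-type differences with a site left in either list, 44 stayed within the main interval with the same sign, 11 left it and 5 changed sign. Of the 11 that left it, 8 were shares of the same chromosome, which stand on another scale than the main interval. Settings that left no site in either list, such as coverage of 25 or more for every locus in L, gave no difference. Apart from the per-chromosome shares, whose scale differs, the cause of these changes was not tested. As shares of the same chromosome, the differences were -0.383 and -3.57 points for Tcra (L, S), 1.35 and -1.97 for Igk, 0.826 and 1.23 for Tcrb and 1.70 and 2.46 for Igh. Tcra in L turned to 0.0137 at coverage of 11 or more, and Tcra in S was -0.451 at coverage of 25 or more. Igk in L turned to -0.218 at an identification score of 20 or more and to -0.0506 without sites that share a 16-base word, an alternative chosen after seeing the data. Igk in S was -0.277 at a score of 30 or more and turned to 0.198 at coverage of 25 or more, where 1 site was left. Tcrb in S was 0.408 at an identification score of 20 or more, and Igh in S turned to -0.0554 at a score of 30 or more.

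Of 80 recomputed percentages of windows with as many sites as the locus or more, 58 stayed within the exact interval of the main value, among them all 14 with windows shifted by 0.5 of their length, where Igk in wild-type S went to 9.30% and Igh in knockout S to 23.1%. At coverage of 11 or more they were 45.5% for Tcra in knockout L, 45.5% for Igk in wild-type S and in knockout S, 15.7% for Tcrb in knockout L, 73.2% for Igh in knockout L and 48.8% for Igh in wild-type S. At coverage of 25 or more Igk in knockout S had 15.9%. At a score of 30 or more the values were 34.1% for Igk in knockout L, 2.27% for Igk in wild-type S and 8.76% for Tcrb in knockout L. At an identification score of 20 or more they were 12.1% for Tcra in wild-type S, 0.922% for Tcrb in knockout S and 39.0% for Igh in knockout S. Without sites that share a word they were 34.8% for Tcra in wild-type L, 45.5% for Igk in knockout L, 50% for Igk in wild-type S, and 29.95%, 38.2% and 40.6% for Tcrb in knockout L, wild-type S and knockout S. Counted as clusters Tcrb in knockout S had 12.4%. Against windows of chromosomes 1 to 19 Tcrb in knockout L had 45.2% and Igh in knockout S 27.6%. Settings that left no site in a locus gave no percentage.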
